A study of Caenorhabditis elegans with 13 samples.

Results

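Ribosomal proteins of the cytosol were taken from a table of expression levels in first-stage (L1) larvae of *C. elegans*. A gene was a member when its name began with *rpl-* or *rps-* followed by a number, or was *rla-0*, *rla-1*, *rla-2*, *ubl-1* or *ubq-2*. The rule took 81 of the 46170 genes in the table, 49 of the large ribosomal subunit (*rpl*, *rla* and *ubq-2*) and 32 of the small subunit (*rps* and *ubl-1*). The values were mRNA levels in FPKM, fragments per kilobase of transcript scaled to the mapped reads of the library, and all comparisons between genes below are on this scale, which is per length. The 4 groups were wild type (N2) hermaphrodites on control vector RNAi (3 libraries), N2 on *dpy-27* RNAi (4 libraries), the *cec-4(ok3124)* IV strain RB2301 on control vector RNAi (3 libraries) and the *met-2(n4256) set-25(n5021)* III strain EKM99 on control vector RNAi (3 libraries). All larvae had been hatched without food and then fed for 3 hours. The study asked how loss of heterochromatin anchoring at the nuclear lamina compares with partial loss of dosage compensation, the process that lowers expression from both X chromosomes of hermaphrodites. DPY-27 is a subunit of the dosage compensation complex, MET-2 and SET-25 are methyltransferases of histone H3 lysine 9, and CEC-4 is a chromodomain protein that binds this mark at the nuclear periphery. Each mutant group is 1 strain.

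The ribosome of the cytosol is built from a large and a small subunit, each a core of ribosomal RNA coated with many small basic proteins. With few exceptions each protein is present as a single copy per ribosome, and the mRNAs of these proteins are among the most abundant in growing cells. In *C. elegans*, larvae that hatch without food arrest, and ribosome production resumes with feeding. Most of the proteins are encoded by a single gene, so that the few duplicated genes stand out.

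The table holds 1 mean value per group and no value for single libraries, so that no difference below has a replicate check, a standard error or a p-value. A log2 ratio is the log2 of one group mean divided by another, for genes whose mean over both groups was above 1 FPKM. A log2 ratio past 0.1 or -0.1 was counted as above or below, and single members were also read against 1.5-fold. The 3 comparisons with vector share that control group, and a departure of the control would move all 3 together. In whole larvae, fewer cells of a type and less RNA per cell cannot be told apart.

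The targeted genes gave an uneven check of the labels. The *dpy-27* mRNA stood at 32.3 FPKM in vector and 31.6 FPKM in the group labelled *dpy-27(RNAi)*, so that its mRNA level did not mark that group. DPY-27 protein was not analysed here. The *cec-4* mRNA stood at 18.2 FPKM in vector and 7.02 FPKM in the *cec-4* group. In *met-2 set-25*, *met-2* stood at 13.7 FPKM (17.65 in vector) and *set-25* at 4.15 FPKM (8.93 in vector). Gene-level values do not show which part of a deleted gene the reads came from. In the group labelled *dpy-27(RNAi)*, genes on X had a median log2 ratio of 0.18 and genes on autosomes a median of 0.022.

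The members were the leading class of mRNA in every group. Of the 81 members, 77 lay above 1000 FPKM in all 4 groups, and 73 of the 100 most abundant genes in vector were members (74 in *dpy-27(RNAi)*, 73 in each mutant). The median member stood at 4974 FPKM in vector, 4958 in *dpy-27(RNAi)* larvae, 4112 in *cec-4* larvae and 3809 in *met-2 set-25*, where the median of all genes above 1 FPKM was 14.0, 13.6, 13.9 and 13.7. The summed level of the members made up 32.8% of the column total in vector, 32.8% in *dpy-27(RNAi)* larvae, 29.0% in *cec-4* larvae and 28.2% in *met-2 set-25*. The large subunit accounted for 19.4%, 19.5%, 17.6% and 16.9%, and the small subunit for 13.4%, 13.3%, 11.5% and 11.3%. Both subunits thus took a smaller share in the 2 mutants.

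Among the 77 abundant members the levels were narrow, and the 90th percentile was 1.99 times the 10th percentile in vector, 1.91 times in *dpy-27(RNAi)*, 2.09 times in *cec-4* and 2.03 times in *met-2 set-25*. The order of the members was much alike between groups, with a Spearman correlation of the FPKM levels over 80 members of 0.98 between vector and *dpy-27(RNAi)*, 0.93 between vector and *cec-4*, 0.92 between vector and *met-2 set-25* and 0.97 between the mutants. These correlations are across genes that share the same libraries and gene lengths. The plot of levels by gene shows the narrow band and the 4 genes beneath it.

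**Figure D1:**
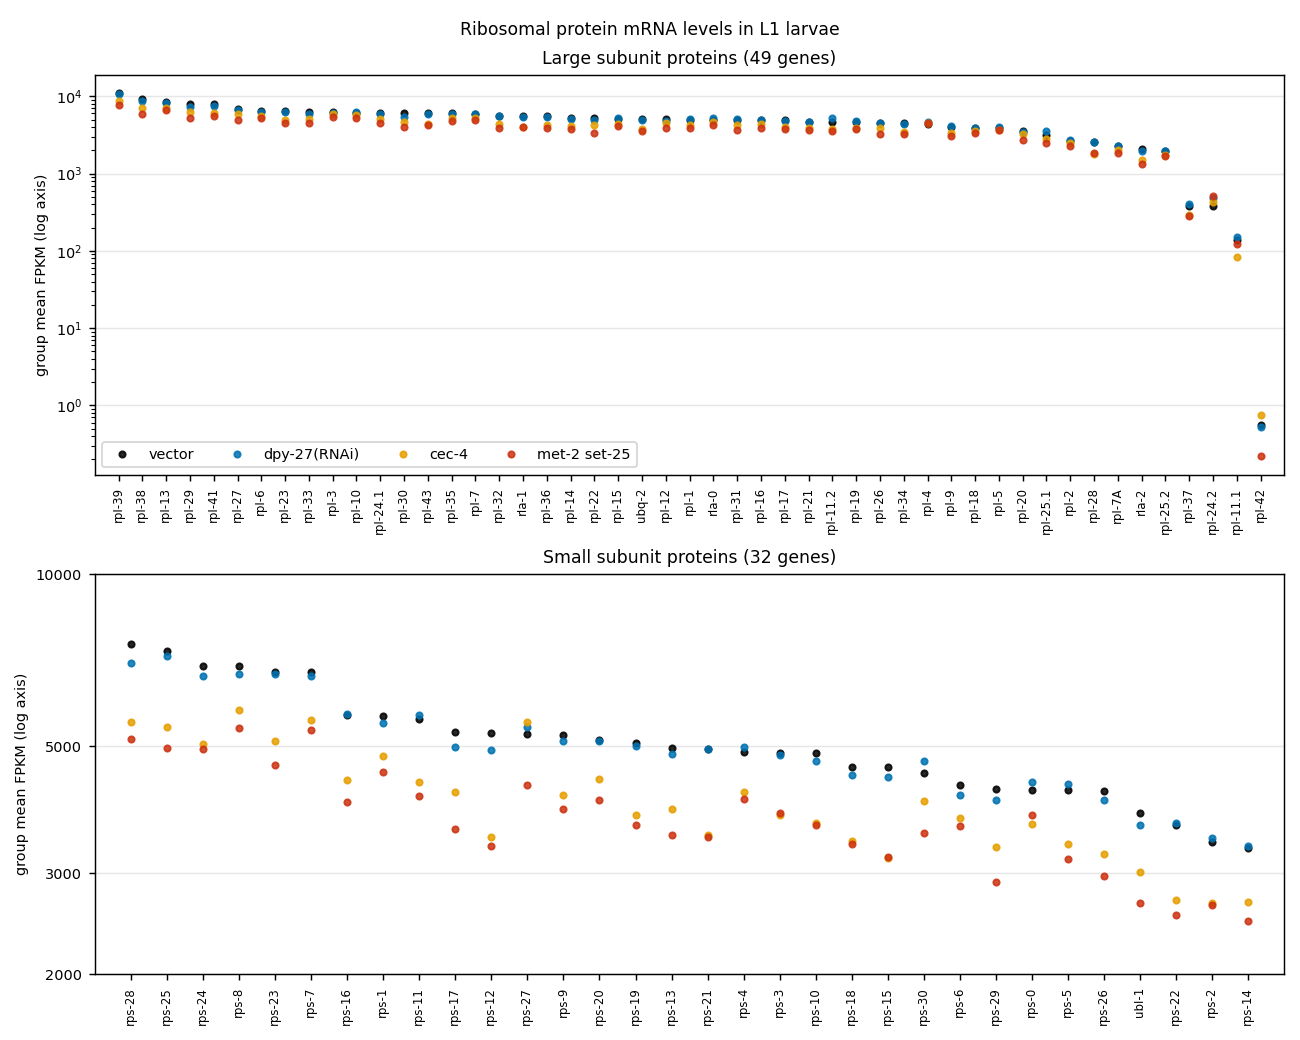
Group mean FPKM (log axis) of each ribosomal protein gene, ordered by its level in vector, with large subunit genes above and small subunit genes below; each point is 1 group mean and has no error bar. In 77 of 80 members above 1 FPKM, the black (vector) and blue (*dpy-27(RNAi)*) points both lie above the orange (*cec-4*) and red (*met-2 set-25*) points. This order was not counted over all genes.

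Member levels were lower in both mutants than in the other groups. Of the 80 members above 1 FPKM, 77 had both vector and *dpy-27(RNAi)* above both mutants, and *met-2 set-25* was the lowest of the 4 groups for 73 members and *cec-4* for 5. The median member stood at 0.806 times vector in *cec-4* larvae (log2 ratio -0.31) and at 0.747 times vector in *met-2 set-25* (-0.42). The median log2 ratio for *dpy-27(RNAi)* was -0.014, and its sign turned with the scaling of the columns (-0.059 to 0.0062 over the alternatives). There, 76 of 80 members were within 10% of their vector level, a share that was not counted over all genes.

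The same medians over all genes tested were 0.045 in *dpy-27(RNAi)* larvae (15942 genes), 0.13 in *cec-4* larvae (16118 genes) and 0.072 in *met-2 set-25* (16099 genes). The member median minus the median of all genes was therefore -0.059, -0.44 and -0.49, a gap that scaling of the columns does not alter. Their log2 ratios were also close together, with an interquartile range of 0.071, 0.17 and 0.18 against 0.50, 0.83 and 0.89 over all genes. Abundant genes that are not members are a nearer comparison. The 81 other genes above 1000 FPKM had median log2 ratios of -0.012, -0.13 and -0.21, and the 1281 other genes above 100 FPKM had -0.016, -0.055 and -0.16. Both sets took genes of any kind, among them ribosomal RNA genes and genes of the mitochondrial genome. They also held Y37E3.8, W01D2.1 and F54D7.7, ribosomal protein genes that the rule did not take.

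In *cec-4*, 72 of 80 members were below -0.1, where 35.1% of all genes tested were, and 1 member was above 0.1 (52.1% of all genes). In *met-2 set-25*, 78 of 80 members were below -0.1 (39.5% of all genes) and 1 was above 0.1 (48.3%). In *dpy-27(RNAi)*, 4 members were above 0.1 (43.5% of all genes) and 4 were below -0.1 (32.2%). These counts moved with the scaling. When each column was divided by its total, the split in members above and below became 3 and 58 in *cec-4* larvae and 2 and 63 in *met-2 set-25*, with 28.0% and 28.4% of all genes below. The members are part of these totals. With totals that left the members out, the splits were 2 and 70 in *cec-4* and 2 and 75 in *met-2 set-25*. The share of all genes was not counted on that scale. When ratios were centred on all genes, the split in *dpy-27(RNAi)* became 3 and 18, where 38.8% of all genes were above and 37.5% below.

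The differences were small for any single member. No member was over 1.5-fold lower in *dpy-27(RNAi)* (8.89% of all genes), 2 were in *cec-4* larvae (12.0%) and 5 in *met-2 set-25* (16.7%). None was over 1.5-fold higher in *dpy-27(RNAi)* (14.6% of all genes), *cec-4* (23.2%) or *met-2 set-25* (22.6%). The members that passed were *rpl-11.1* and *rps-12* in *cec-4*, and *rpl-22*, *rps-12*, *rla-2*, *rpl-38* and *rpl-29* in *met-2 set-25*.

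Comparisons that do not use the vector group gave the same order. Relative to *dpy-27(RNAi)*, 76 of 80 members were below -0.1 in *cec-4* larvae (35.4% of all genes; member median -0.27, all genes 0.072) and 78 in *met-2 set-25* (43.4%; member median -0.42, all genes -0.022). Between the mutants, 44 members were below -0.1 in *met-2 set-25* relative to *cec-4* (46.5% of all genes) and 2 were above 0.1 (33.2%). The member median of -0.11 lay near the all-gene median of -0.069 there.

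**Figure D2:**
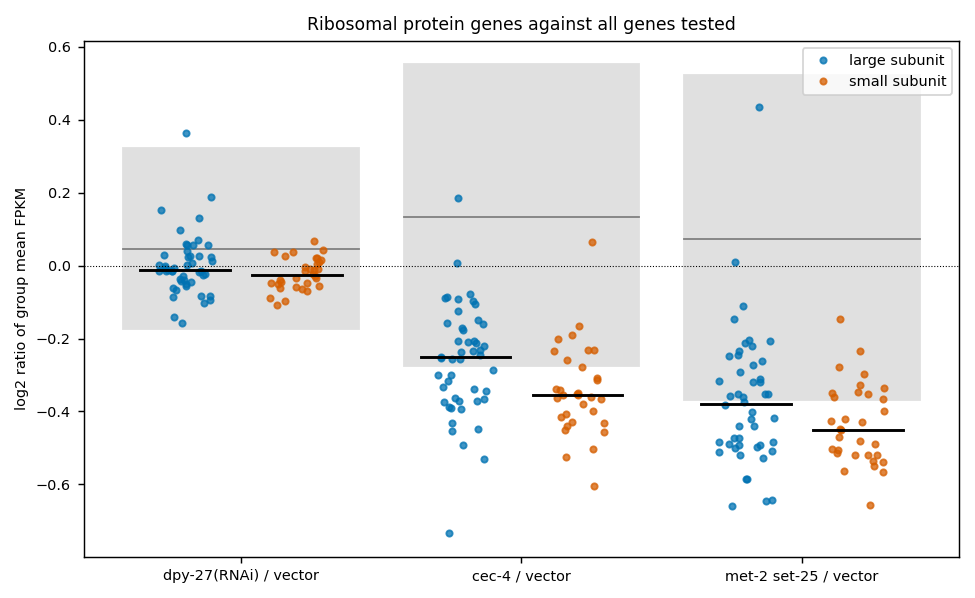
Log2 ratio of group mean FPKM to vector for the 80 members above 1 FPKM, by subunit (points, spread sideways at random; black bars, subunit medians), over the interquartile range of all genes tested (grey box; grey line, median). The member medians are -0.014, -0.31 and -0.42 from left to right, and the large subunit point at the top of each column is *rpl-24.2* (0.36, 0.19 and 0.43).

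The small subunit had lower log2 ratios than the large subunit. Its 32 members had medians of -0.026 in *dpy-27(RNAi)* larvae, -0.36 in *cec-4* larvae and -0.45 in *met-2 set-25*, and the 48 large subunit members tested had -0.013, -0.25 and -0.38. Of the small subunit members, 31 were below -0.1 in *cec-4* and all 32 in *met-2 set-25*. The exception in *cec-4* was *rps-27*, a zinc-finger protein of the small subunit, at 5267, 5405, 5507 and 4282 FPKM (here and below in the order vector, *dpy-27(RNAi)*, *cec-4*, *met-2 set-25*). Its level in *cec-4* was the highest of the 4, and that in *met-2 set-25* the lowest.

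The 5 members with the highest mean level all belong to the large subunit. *rpl-39*, a protein of the exit tunnel for the growing chain with 51 residues (V:7775742-7776079, minus strand), ranked at place 3 among all genes in each group at 11132, 10703, 8799 and 7768 FPKM. *rpl-38* stood at 9351, 8752, 7133 and 5991 FPKM, and *rpl-13* at 8352, 8307, 7113 and 6688 FPKM. Both had the 2 mutants beneath the other groups. *rpl-29*, at 7965, 7228, 6175 and 5304 FPKM, was among the 3 lowest ratios in *dpy-27(RNAi)* (-0.14). The gene listed as *rpl-41*, which RefSeq names *rpl-36A*, stood at 7883, 7441, 6023 and 5584 FPKM.

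The members with the lowest ratios came from both subunits. *rps-12*, a small subunit protein encoded at III:5679298-5680187, was low in both mutants at 5279, 4932, 3470 and 3346 FPKM, with log2 ratios of -0.61 in *cec-4* larvae and -0.66 in *met-2 set-25*. *rpl-22*, an RNA-binding protein of the large subunit, reached the lowest ratio in *met-2 set-25* (-0.66) from 5239, 4936, 4210 and 3314 FPKM. *rpl-28* was at 2571, 2530, 1780 and 1851 FPKM, so that *cec-4* was its lowest group (-0.53). In *dpy-27(RNAi)* the lowest ratios belonged to *rpl-30* (-0.16), at 6044, 5421, 4602 and 4030 FPKM, then *rpl-29*, and *rps-28* (-0.11), at 7536, 6993, 5507 and 5144 FPKM. In yeast the Rpl30 protein regulates the splicing of its own mRNA. Like the bulk of the members, these 3 genes had the mutants beneath the other groups, with *met-2 set-25* lowest.

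Some of the highest ratios in the mutants belonged to long proteins, beside those of *rpl-24.2* (162 residues) and, in *cec-4*, *rps-27* (83 residues). *rpl-4*, which lines the exit tunnel and is among the longest members with 345 residues, was level across the groups at 4441, 4664, 4461 and 4473 FPKM, with log2 ratios of 0.071, 0.0065 and 0.010. *rpl-5*, which carries the 5S ribosomal RNA into the large subunit, was at 3912, 4066, 3679 and 3624 FPKM, with ratios of 0.056, -0.089 and -0.11. On the deposited scale both stood close to their vector level in each group, and division by column totals adds 0.12 and 0.20 to their ratios in the mutants.

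The stalk of the large subunit recruits translation factors, and is built of *rla-0* (P0), which anchors dimers of the acidic proteins *rla-1* (P1) and *rla-2* (P2). The anchor *rla-0* stood at 4915, 5262, 4595 and 4245 FPKM, with log2 ratios of 0.099, -0.097 and -0.21. The acidic *rla-1*, at 5510, 5459, 4035 and 3968 FPKM, had -0.014, -0.45 and -0.47. *rla-2* was less abundant, at 2084, 1939, 1482 and 1332 FPKM, with -0.10, -0.49 and -0.65. The P1 and P2 genes therefore had lower ratios than the P0 gene in all 3 groups, and P2 made up 27.4%, 26.2%, 26.9% and 25.13% of the P1 and P2 sum. The P0 protein has 312 residues, P1 has 111 and P2 has 110.

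Among the members made as fusions to a ubiquitin or ubiquitin-like domain, which is cut off after translation, *ubq-2* and *ubl-1* followed the bulk of the members. *ubq-2*, the fusion to the large subunit protein L40, was at 5068, 4891, 3753 and 3518 FPKM (log2 ratios -0.051, -0.43 and -0.53). *ubl-1*, the fusion to the small subunit protein S27a, was at 3822, 3639, 3015 and 2665 FPKM (-0.071, -0.34 and -0.52). Both had the lowest level in *met-2 set-25*. A further fusion, *rps-30* (*fau-1* in RefSeq), stood at 4498, 4714, 4007 and 3528 FPKM. Its log2 ratios were 0.068, the highest of the small subunit in *dpy-27(RNAi)*, -0.17 and -0.35.

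Duplicated genes differed in level and in pattern. For the pair of L11 genes, the X-linked *rpl-11.2* (X:2241738-2242618) was at 4666, 5318, 3790 and 3535 FPKM and *rpl-11.1* (V:3585312-3586064) at 138, 151, 82.6 and 124 FPKM. Autosomal *rpl-11.1*, known for a role in germ line proliferation, was thus 2.86%, 2.75%, 2.13% and 3.39% of the sum, and its *cec-4* level gave the lowest log2 ratio of any member in that group (-0.73). The 5 germ line markers (*pgl-1*, *pgl-3*, *glh-1*, *nos-2*, *htp-3*) summed to 31.8, 38.8, 25.16 and 215 FPKM. In *cec-4* only *glh-1* (25.5 in vector, 17.4) and *nos-2* (0.65, 0.54) were lower than in vector, and the median log2 ratio of the 4 tested markers was 0.29 there and 2.79 in *met-2 set-25*. Their part in its values was not tested. Both L11 proteins have 196 residues, and reads that fit both copies may be divided between them.

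The L24 pair had ratios of opposite sign. *rpl-24.1*, the ribosomal copy, stood at 6140, 5866, 5145 and 4522 FPKM (log2 ratios -0.066, -0.26 and -0.44), and *rpl-24.2*, related to the yeast assembly factor Rlp24, at 381, 490, 433 and 515 FPKM. *rpl-24.2* was lowest in vector and had the highest log2 ratio of all members in each comparison, at 0.36, 0.19 and 0.43. Its share of the sum of the pair was 5.84%, 7.71%, 7.77% and 10.2%. It overlaps another gene in the annotation, *C03D6.1*, and the libraries did not mark the strand.

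The L23a genes *rpl-25.1* (X:4715178-4715796) and *rpl-25.2* were closer in level. *rpl-25.1* stood at 3178, 3535, 2813 and 2478 FPKM, and *rpl-25.2* at 1983, 1963, 1718 and 1702 FPKM. The autosomal *rpl-25.2* thus made up 38.4%, 35.7%, 37.9% and 40.7% of the sum, least in *dpy-27(RNAi)*. *rpl-7* and *rpl-7A* share a number but encode different proteins of the large subunit. The first was at 5830, 5837, 5232 and 4923 FPKM and the second at 2244, 2287, 2024 and 1872 FPKM. In both, the mutants lay beneath the other groups, with *met-2 set-25* lowest.

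**Figure D3:**
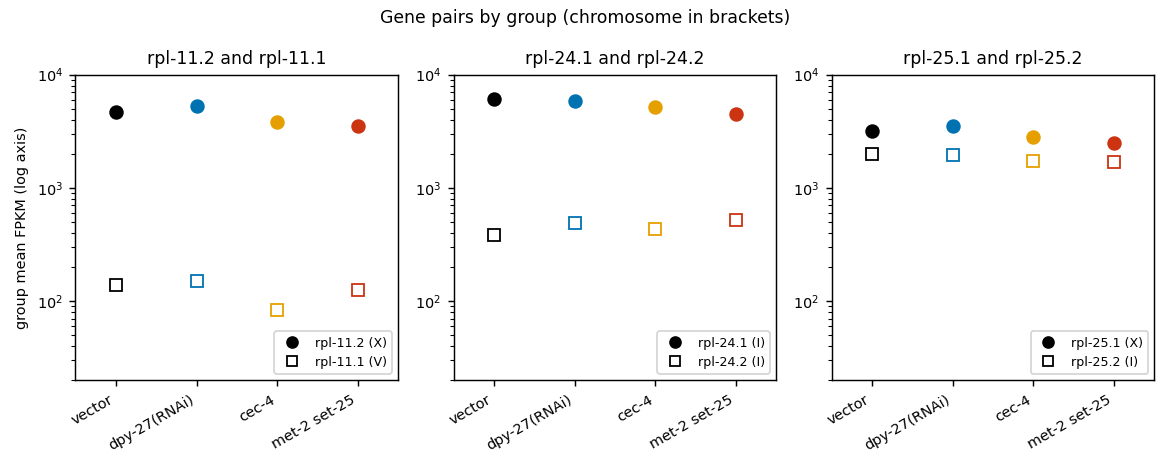
Group mean FPKM (log axis) of the 3 pairs of duplicated genes in the 4 groups, filled circles for the more abundant copy and open squares for the other; each point is 1 group mean. *rpl-24.2* is lowest in vector at 381 FPKM, and the X-linked *rpl-11.2* and *rpl-25.1* are highest in *dpy-27(RNAi)* at 5318 and 3535 FPKM.

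Members are rare on X. Only *rpl-11.2* and *rpl-25.1* of 81 (2.47%) are placed there, where 2763 of the 16285 placed genes above 1 FPKM are (17.0%). The autosomal members are spread as 23 on I, 10 on II, 20 on III, 18 on IV and 8 on V. In the group labelled *dpy-27(RNAi)* both X-linked members were above 0.1 (log2 ratios 0.19 and 0.15), and 58.9% of all X-linked genes tested were. The median of the X-linked members was 0.17 and that of the 78 autosomal members -0.015, a gap like that between all X-linked genes (0.18) and all autosomal genes (0.022). In the mutants the X-linked members had medians of -0.24 in *cec-4* larvae and -0.38 in *met-2 set-25*, and the autosomal members -0.31 and -0.42. All X-linked genes had medians of 0.29 and 0.18 there, and all autosomal genes 0.097 and 0.045. In both mutants the X-linked members thus had negative medians, like the autosomal members and unlike all X-linked genes. Their medians were also above those of the autosomal members, as were the medians of all X-linked genes above those of all autosomal genes. With 2 genes these gaps have no measure of error.

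The 4 members under 1000 FPKM included *rpl-11.1* and *rpl-24.2*. *rpl-37*, a zinc-finger protein of the large subunit, stood at 383, 399, 295 and 286 FPKM. Its near copy W01D2.1, which RefSeq names *rpl-37.1* and the rule did not take, stood at 2714, 2524, 1887 and 1774 FPKM. *rpl-37* was thus the minor copy in each group, at 12.4%, 13.7%, 13.5% and 13.9% of their sum. *rpl-42* was at 0.56, 0.53, 0.75 and 0.22 FPKM, too low for a ratio, and is the 1 member of 81 that was left out of the log2 ratios.

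RefSeq names 4 genes as ribosomal proteins that the rule did not take, chosen here after their values were seen. Beside W01D2.1 these were Y37E3.8 (*rpl-27A*), at 8673, 8393, 6345 and 5941 FPKM, and F54D7.7 (*rpl-41.2*), at 13536, 12112, 7935 and 7723 FPKM. The fourth, F54D7.6 (*rpl-41.1*), was the minor copy at 426, 314, 192 and 149 FPKM. All 4 had the mutants beneath the other groups, with *met-2 set-25* lowest, and *rpl-41.2*, with 22 residues, lay above *rpl-39* in vector.

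The remaining 53 members, *rps-30* and those not named above, kept close together. They ran from 2632 to 7329 FPKM in vector, 2739 to 7182 in *dpy-27(RNAi)*, 2496 to 5821 in *cec-4* and 2284 to 5384 in *met-2 set-25*. Their log2 ratios ran from -0.090 to 0.068 in *dpy-27(RNAi)*, from -0.53 to -0.077 in *cec-4* and from -0.57 to -0.15 in *met-2 set-25*. None of the 53 had a ratio at or above 0 in either mutant on the deposited scale.

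The length of the protein moved with the log2 ratio. Over the 80 members, the Spearman correlation of the ratio with protein length was 0.45 in *dpy-27(RNAi)* larvae, 0.56 in *cec-4* larvae and 0.73 in *met-2 set-25*. The members share libraries and a length correction that is part of the FPKM scale. With the mean level of the member the correlation was -0.34, -0.032 and -0.18. Short members thus had the lower ratios.

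Other protein-coding genes above 100 FPKM were therefore set beside the members in bins of protein length, a comparison chosen after the data were seen. In *cec-4* the members lay below these genes in each bin, with medians of -0.37 against -0.20 up to 130 residues (27 members, 222 other genes), -0.34 against -0.25 from 131 to 190 residues (28 and 176) and -0.22 against -0.069 from 191 to 401 residues (25 and 370). In *met-2 set-25* the members lay above the other genes in the 2 shorter bins, at -0.51 against -0.58 and -0.45 against -0.54, and below them in the longest, at -0.28 against -0.15. In *dpy-27(RNAi)* they lay above them in each bin, at -0.045 against -0.15, -0.015 against -0.12 and 0.024 against 0.0037. Other protein-coding genes of like length above 100 FPKM thus had medians at least as low as those of the shorter members in *met-2 set-25*. Level was not matched, since 77 members had a mean above 1000 FPKM and the limit for the other genes was 100 FPKM. The part of length in the results was not tested further.

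**Figure D4:**
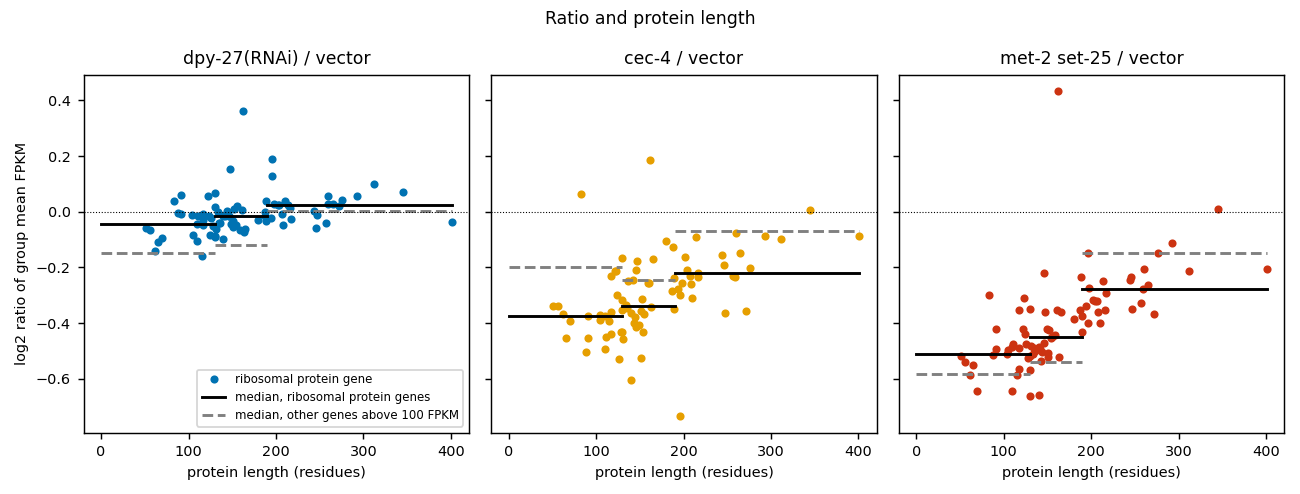
Log2 ratio of group mean FPKM to vector against protein length in residues for the 80 members (points), with medians in 3 bins of length for members (solid black) and for other protein-coding genes above 100 FPKM (dashed grey; 222, 176 and 370 genes). Ratios are higher for longer proteins (Spearman 0.45, 0.56 and 0.73), and in *met-2 set-25* the dashed line is under the solid line in the 2 shorter bins.

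Small nucleolar RNAs, which guide the modification of ribosomal RNA, often lie in introns of these genes. An annotated snoRNA gene lay within 14 of 81 members (17.3%) and within 34 of 1151 other protein-coding genes above 100 FPKM (2.95%). The 14 host members had median log2 ratios of -0.014, -0.24 and -0.38, and the 66 others tested had -0.014, -0.32 and -0.42. Another annotated gene of any kind overlapped 28 members, and a protein-coding gene 15. The members with no overlapping gene (52 tested) had medians of -0.015, -0.30 and -0.40 and the 28 overlapped members had -0.013, -0.32 and -0.46, so that the low ratios were present in both.

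Other genes of translation were read from lists by name. The 66 mitochondrial ribosomal proteins, which build the separate ribosome of that organelle, had median log2 ratios of 0.11, -0.51 and -0.34, with 36 above and 0 below 0.1 and -0.1 in *dpy-27(RNAi)* larvae, 1 and 64 in *cec-4* larvae, and 5 and 58 in *met-2 set-25*. Of the pair with the highest levels, *mrps-11* was at 110, 138, 127 and 142 FPKM and *mrps-33* at 113, 124, 81.2 and 93.9 FPKM. When columns were divided by their totals, the *met-2 set-25* median of the list became -0.15, with 8 above and 38 below. The mitochondrial list thus had its lower median in *cec-4*, and the cytosolic members theirs in *met-2 set-25*.

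The 21 initiation factors had medians of 0.11, -0.41 and -0.29, with 11 above and 2 below in *dpy-27(RNAi)* larvae, 2 and 19 in *cec-4* larvae, and 2 and 15 in *met-2 set-25*. *iff-2*, an eIF5A, stood at 1771, 1838, 1303 and 1449 FPKM, and *eif-1.A* at 441, 454, 323 and 328 FPKM. Their lower median was in *cec-4*, and when columns were divided by their totals the *met-2 set-25* median became -0.095, with 6 above and 10 below. The 6 elongation factors had medians of 0.14 (6 above, 0 below), -0.13 (1 and 4) and -0.10 (2 and 3), the last of which became 0.094 when columns were divided by their totals. The abundant *eef-1A.1*, which brings aminoacyl-tRNA to the ribosome, stood at 8935, 9718, 9249 and 9759 FPKM, and *eef-2*, which moves the ribosome along the mRNA, was lowest in vector at 3108, 3592, 3865 and 4119 FPKM. The mutant log2 ratios of *eef-1A.1* (0.050 and 0.13) lay within 0.1 of the medians of all genes (0.13 and 0.072), and those of *eef-2* (0.31 and 0.41) above them.

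The 32 aminoacyl-tRNA synthetases had medians of 0.070 (11 above, 2 below), -0.34 (0 and 26) and -0.10 (7 and 16), the last of which became 0.093 when columns were divided by their totals. With totals that left the members out, neither this median nor that of the elongation factors changed sign. *kars-1*, for lysine, was at 223, 232, 132 and 169 FPKM, and *sars-1*, for serine, at 163, 198, 174 and 193 FPKM. The 19 genes of RNA polymerase I and the nucleolus, where ribosomes are assembled, had medians of 0.28 (18 above, 1 below), -0.28 (2 and 15) and 0.076 (8 and 2), the last of which became 0.27 (17 and 2) when columns were divided by their totals. Fibrillarin (*fib-1*), the methyltransferase of ribosomal RNA, was at 1199, 1310, 718 and 956 FPKM, and *nol-5* at 392, 464, 277 and 380 FPKM. The 32 proteasome subunits, abundant proteins with no part in translation, had medians of -0.25 (1 above, 30 below), -0.49 (1 and 29) and -0.81 (1 and 31), with *pas-3* at 159, 127, 107 and 85.2 FPKM and *pas-2* at 140, 117, 81.1 and 76.8 FPKM. In both mutants the proteasome list thus had a lower median than the ribosomal proteins.

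**Figure D5:**
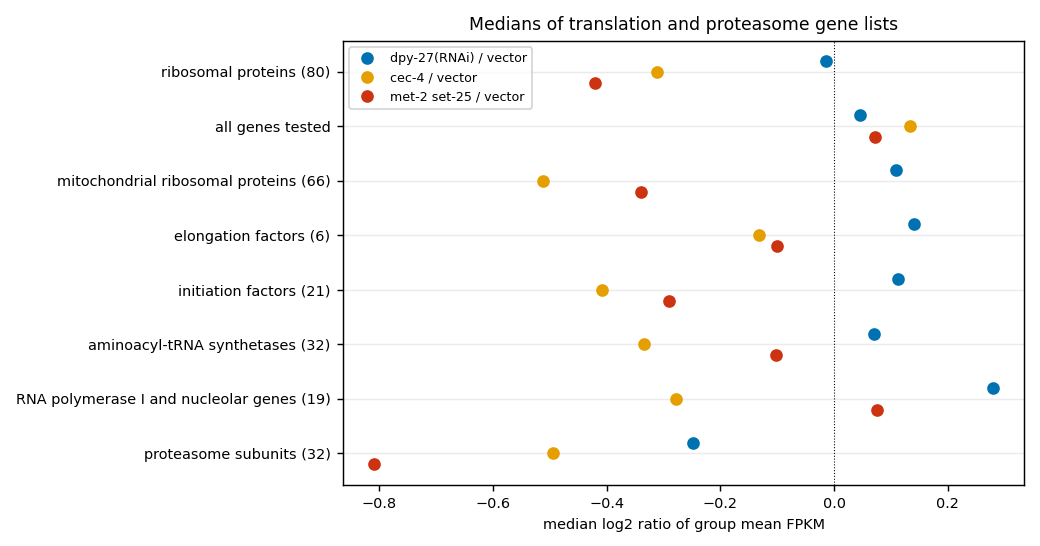
Median log2 ratio of group mean FPKM to vector for the 80 ribosomal protein genes, all genes tested and 6 gene lists (number of genes in brackets). In *dpy-27(RNAi)* (blue) the ribosomal proteins are at -0.014 and the nucleolar genes at 0.28. The elongation factors and synthetases in *met-2 set-25* (red) at -0.10 turn to 0.094 and 0.093 when columns are divided by their totals, which include the members. Totals without members do not turn their sign.

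Signs of RNA composition and of cell makeup also differed between the groups. The 21 ribosomal RNA genes summed to 14362, 9021, 6534 and 11562 FPKM, led by *rrn-2.1* (8932, 4685, 3091 and 4704) and *rrn-3.1* (5147, 4100, 3266 and 6484), in libraries made for polyadenylated RNA. Genes of the mitochondrial genome summed to 10940, 10137, 7814 and 7811 FPKM, with *ctc-3* at 1979, 1721, 1479 and 1327 and *ctc-2* at 1845, 1850, 1314 and 1334. Histone genes summed to 2434, 1982, 2008 and 2028 FPKM, with *his-72* at 562, 511, 500 and 613 and *his-37* at 356, 317, 361 and 361. Both the mitochondrial genome and the ribosomal RNA sums were lower in the mutants than in vector. The ribosomal RNA sum was also lower in *dpy-27(RNAi)*. Single ribosomal RNA genes did not all follow their sum in *met-2 set-25*. There, 3 of the 4 tested were counted as above and 1 as below, with a median log2 ratio of 0.36. In *dpy-27(RNAi)* and *cec-4* all 3 tested were counted as below, with medians of -0.33 and -0.68.

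The 4 markers of body muscle summed to 2033, 2281, 3009 and 2745 FPKM, the 5 of neurons to 699, 831, 1028 and 802, and the 5 of the intestine to 7567, 6319, 8206 and 6528. The muscle and neuron sums were thus highest in *cec-4* and lowest in vector, which single markers did not all follow (*unc-15* and *unc-104* were highest in *met-2 set-25*, and *unc-27* was lowest there). Among the 5 hypodermis markers *elt-3* stood at 89.7, 90.02, 108 and 92.5 FPKM, and the collagens *dpy-7*, *rol-6*, *dpy-13* and *bli-1* at or under 1.25 FPKM in each group. The 5 markers of adult and sperm stages summed to 1.57, 1.78, 1.70 and 2.33 FPKM. The part of RNA composition and cell makeup in the members' levels was not tested.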

How the data were processed

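Libraries were non-stranded, polyadenylated mRNA libraries read as single-end 50 bp reads. Per the labels and methods, the authors trimmed reads with Trim Galore, aligned them with TopHat2 2.0.13 to WS235 (at most 20 hits for a read) and estimated FPKM with Cufflinks 2.2.1. The deposited FPKM values are 1 mean per group, and 0 columns hold values of single libraries. A second deposited table holds the authors' fold changes and adjusted p-values from DESeq2 1.6.3 and was not used. The depth per library is unknown from these values.

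From the 4 columns, plain log2 ratios of group means were computed for genes with a mean above 1 FPKM, with a cutoff of 0.1. Positions and protein lengths came from Ensembl release 115 (WBcel235), where 299 gene IDs were not found, and further names from RefSeq (WBcel235). Python 3.11.15, numpy 2.4.6, pandas 2.3.3 and matplotlib 3.10.9 were used. The median log2 ratio and the count below -0.1 were recomputed on simulated group means with a known shift, apart from the reported calculations. No other calculation was tried on simulated data. Members and lists were chosen with earlier results of these data known. Named members (28) were the 5 highest and 5 lowest in mean level, those on X, in paralogue sets or in the stalk, and *ubq-2* and *ubl-1*. The 3 highest and 3 lowest ratios per comparison were also named. *rps-30* was added outside this rule. From each list the 2 most abundant genes were named. Alternatives were the pseudocount, filters on low values, scaling, membership, summary, protein length and cutoff.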

Additional observations from a re-analysis of the deposited data

How the results depend on the processing

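No paired analysis was possible because only group means were used, and leaving out each replicate was not run for the same reason. A median was counted as moved past 0.1 on the log2 scale and a count past 1.5 times; 108 of the alternative values did not move and 23 did. No member median past 0.1 in size, and no gap past 0.1 to all genes, changed sign. The *dpy-27(RNAi)* member median and its gap to all genes, both under 0.1 in size, turned to 0.0062 (both scalings to totals) and to 0.019 (genes above 100 FPKM). Outside these values, the *met-2 set-25* medians of the elongation factors and synthetases (-0.10) changed sign when columns were divided by their totals. The member median ran from -0.059 to 0.0062 in *dpy-27(RNAi)*, from -0.44 (centred on all genes) to -0.19 (columns divided by their totals) in *cec-4* and from -0.49 to -0.23 (columns divided by their totals) in *met-2 set-25*. Dividing by column totals, of which the members are part, added 0.020, 0.12 and 0.20 to every log2 ratio. Totals without members added 0.020, 0.040 and 0.0994. In *met-2 set-25* that shift was smaller than the size of the elongation factor (-0.1011) and synthetase (-0.1018) medians, so that neither changed sign. The gap between members and all genes shrank to -0.20 in *cec-4* larvae and -0.21 in *met-2 set-25* among genes above 100 FPKM, and to -0.27 in *met-2 set-25* against genes of at most 300 residues. In *dpy-27(RNAi)*, members below -0.1 numbered 2 with columns divided by their totals, with or without members, and 18 when centred; 1 was above and 0 below at a cutoff of 0.2, and 0 and 0 at 1.5-fold. In *cec-4*, members above 0.1 numbered 3 (column totals), 2 (totals without members) and 0 (centred, cutoff of 0.2 and 1.5-fold), with 2 below at 1.5-fold. In *met-2 set-25*, 2 were above under both totals and 0 at 1.5-fold, with 5 below at 1.5-fold. The cause of these moves was not tested, beyond the constant that each scaling adds. With means alone, neither replicate error nor counting error could be given.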
